A study of Arabidopsis thaliana with 12 samples.

Results

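The genes described here are 61 of the 691 Arabidopsis thaliana genes that had an array probe of their own, and they are the ones whose transcript signal was clearly higher in plants given the herbicide paraquat than in plants given water. A probe was kept if it was listed for 1 gene and had no value of 0 in any of the 12 samples. After quantile normalization and log2, its lowest paraquat value had to exceed its highest water value, and the difference of group means had to be 1 or more. Of 636 probes that could qualify, 72 met these limits (11.3%), and 11 of their genes were left out by name, which leaves 61. The mirrored limits were met by 62 lower probes (9.75%). The genes were thus chosen by the same 12 intensities that are described below, so their differences are given as a description and no test of them is printed.

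The 12 samples are total RNA of wild-type plants of the Landsberg ecotype, all kept in the dark for 12 h and then returned to light for 30 min. Water was given to 6 of them and 50 µM paraquat to the other 6. Samples are numbered 1 to 6 in each group, and the labels do not say whether a number is a plant, a pool of plants or a repeated hybridisation, so spread between samples may be technical. Neighbouring numbers (1 with 2, 3 with 4, 5 with 6) correlated at 0.859 to 0.937 under water and 0.920 to 0.949 under paraquat, and other pairs at 0.756 to 0.866 and 0.876 to 0.929, over 3186 probes. If neighbours are repeated readings, n is 3 per group wherever 6 is printed. The organ sampled and the age of the plants are not given in the sources used here.

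Paraquat accepts electrons on the acceptor side of photosystem I and hands them to oxygen, which gives superoxide and then hydrogen peroxide inside the chloroplast. Plastids answer such stress with peroxidases, redox shuttles that carry excess reducing power out of the organelle, protein repair and changes in the expression of plastid genes. Nearly all proteins that do this work are encoded in the nucleus, and the array measures nuclear transcripts. Most of the 61 genes carry a locus tag in place of a name, and a role is given below for 36 of them, from general knowledge of the Arabidopsis gene families and not from the files.

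The 12 columns had been scaled before deposit, and their medians still differed, from 0.443 to 0.491 under water and from 0.563 to 0.635 under paraquat. Differences are therefore relative to the bulk of the probes after quantile normalization. Across all 3439 probes limma called 24% higher and 28.5% lower at an adjusted p of 0.05 (826 and 979 probes), taking 6 samples a group as independent. With neighbouring numbers averaged, 492 were higher and 668 lower. The difference between groups also followed the number of the probe, in a pattern that repeated every 288 probe numbers and held 22.2% of the variance of the differences (limited to 2 log2 units either way). Periods more than 4 numbers away held up to 14.1%, at the near period of 283. The period of 288 was picked from many as the best on these same differences, so 22.2% is the highest share found. The layout of the array was not used. Values after each sample was centred on the median of each of 24 steps of that repeat are called position centred below.

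The 61 genes had log2 differences from 1.01 to 4.19, with a median of 1.39, against a median of 0.04 over all 636 probes that could qualify. The difference was over 2 for 7 genes, from 1.5 to 2 for 21 (AT5G44000, which rounds to 2.0, included) and one under 1.5 for 33. The distance between the lowest paraquat and the highest water sample was over 1 log2 unit for 7 genes and under 0.1 for 9.

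Water samples varied more than paraquat samples. The SD over 6 samples had a median of 0.45 log2 units under water and 0.21 under paraquat for the 61 genes, and 57 of the 61 had the larger SD under water. Over the 636 probes that could qualify, the 61 included, the medians were 0.36 and 0.24, and 458 had the larger SD under water. The same lean was thus present in that whole set. Mean water intensity was under the mean of the water column medians for 45 of the 61 genes and 305 of the 636 probes. The part of dim signal in the spread was not tested. As the median of the 61 genes per sample, the normalized log2 level lay between -1.78 and -1.26 in the water samples and between -0.12 and 0.16 in the paraquat samples.

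**Figure D1:**
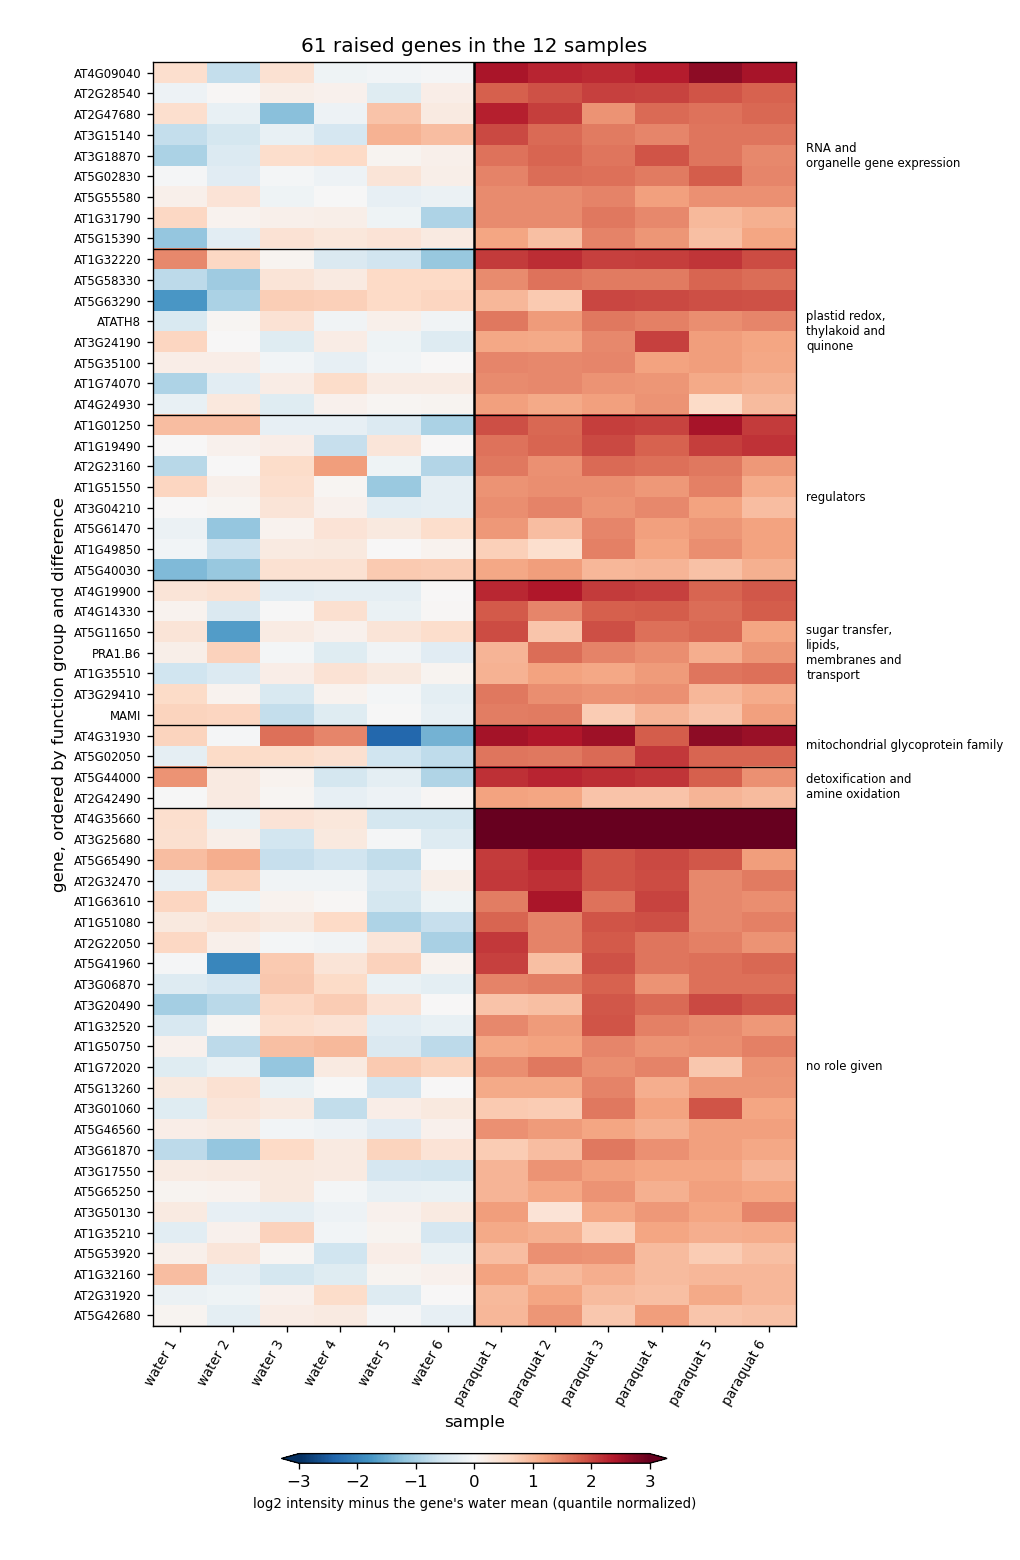
Normalized log2 intensity of the 61 genes (rows, ordered by function group and then by difference) in the 12 samples (columns), each as its distance from the gene's own mean over the 6 water samples; colours end at 3 log2 units either way. The paraquat columns are red throughout, and the water columns hold scattered blue cells, for example AT4G31930 in water samples 5 and 6.

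The largest difference belonged to AT4G35660, for which no role is given. Its deposited intensity was 0.257 at the lowest, 0.405 at the median and 0.512 at the highest under water, and 5.22, 6.20 and 9.43 under paraquat. Every paraquat sample lay far above every water sample, and paraquat samples 1 and 2 were the highest. On the log2 scale the difference was 4.19, or 18.2-fold, with an SD of 0.47 under water and 0.29 under paraquat (n = 6 each), and 3.72 after position centring. Leaving out the samples numbered 1 and 2 in both groups gave 4.09.

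AT3G25680, also without a role here, came next. Under water its deposited intensity ran from 0.110 over a median of 0.141 to 0.184, and under paraquat from 1.15 over 1.35 to 1.47. The groups did not overlap and the paraquat samples lay close together. Of the water samples, 2 were under the 5th percentile of the positive values on their arrays, a limit that ran from 0.104 to 0.141 under water, so the fold is one against a dim signal. The means differed by 3.17 on the log2 scale (8.98-fold; SD 0.40 under water and 0.13 under paraquat, n = 6 each), and 2.80 after position centring.

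**Figure D2:**
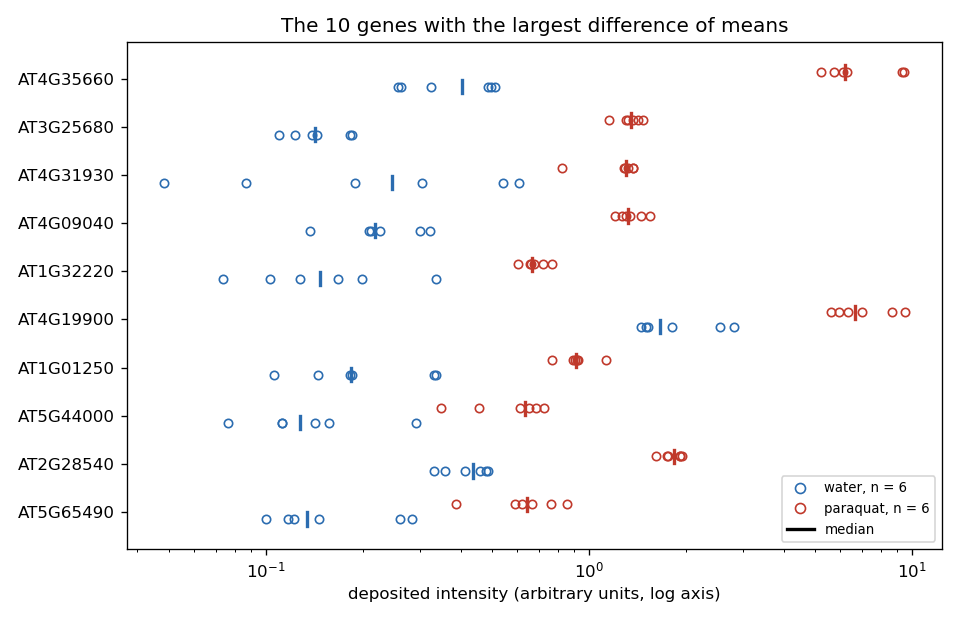
Deposited intensity (arbitrary units, log axis) of the 10 genes with the largest difference of means, 1 circle per sample and a bar at each group's median, water in blue and paraquat in red, n = 6 each. For AT5G44000 the highest water sample (0.292) nearly meets the lowest paraquat sample (0.347), while for AT4G35660 the groups are far apart.

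Proteins that bind, cut or modify RNA, and proteins of organelle gene expression, made up the largest function group. It held 9 genes, with log2 differences from 1.17 to 2.41. Roles were sought for the 61 genes alone and not for the other probes that could qualify. The size of a function group may thus follow what the array holds, and the 11 genes left out by name are in none. RRM-type proteins bind RNA through a small folded domain, mTERF proteins act on the transcripts and genomes of plastids and mitochondria, and pentatricopeptide repeat proteins bind single organelle transcripts. AT4G09040, an RRM-type RNA-binding protein, had deposited intensities of 0.137, 0.218 and 0.321 under water and 1.20, 1.32 and 1.54 under paraquat, as lowest, median and highest. The groups were wide apart, and the difference was 2.41 on the log2 scale (5.32-fold; 1.70 position centred). AT2G28540, of the same broad family, went from 0.330, 0.436 and 0.486 under water to 1.61, 1.83 and 1.94 under paraquat. That is a log2 difference of 1.91 with small spread in both groups (SD 0.21 and 0.12), and 1.19 position centred.

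In the mTERF family, 2 genes were among the 61. AT3G18870 had water intensities of 0.270, 0.537 and 0.788 and paraquat intensities of 1.55, 1.83 and 2.14, a log2 difference of 1.65 (1.13 position centred). For AT5G55580, called mTERF9 here from general knowledge, the values were 0.357, 0.422 and 0.543 under water and 1.19, 1.32 and 1.43 under paraquat. Its log2 difference of 1.39 (1.02 position centred) came with the tightest paraquat group of the 61, at an SD of 0.08, a value it shares with AT1G32220. The groups were apart for both mTERF genes.

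Of the pentatricopeptide repeat genes, AT5G02830 had a log2 difference of 1.61 and AT1G31790 one of 1.31, or 1.07 and 1.10 after position centring. The remaining 3 act on RNA by their families. They are AT2G47680, of a CCCH zinc finger and helicase family (1.80), AT3G15140, of an exonuclease family (1.65), and AT5G15390, of the SpoU-type RNA methyltransferases (1.17). For these 3 genes the groups overlapped after position centring, at log2 differences of 1.27, 1.06 and 0.70. AT2G47680 had intensities of 0.108, 0.209 and 0.331 under water and of 0.564, 0.726 and 1.18 under paraquat. Water sample 3 was under the 5th percentile of its array, and without it the difference was 1.57.

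The mitochondrial glycoprotein family, small acidic proteins of the mitochondrial matrix, gave 2 of the 61 genes. AT4G31930 had deposited intensities of 0.303, 0.188, 0.605, 0.543, 0.0483 and 0.0866 in water samples 1 to 6, and of 1.37, 1.28, 1.29, 0.825, 1.37 and 1.32 in paraquat samples 1 to 6. Water samples 5 and 6 were the lowest by far, water samples 3 and 4 the highest, and paraquat sample 4 stood below the other paraquat samples. The log2 difference was 2.43, with the widest water spread of the 61 genes (SD 1.60, against 0.31 under paraquat), and water samples 5 and 6 lay under the 5th percentile of their arrays. After position centring the difference was larger, at 2.93. AT5G02050 had water intensities of 0.170, 0.315 and 0.421 and paraquat intensities of 1.05, 1.08 and 1.40, a log2 difference of 1.76 with groups apart (1.39 position centred).

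The group of plastid redox, thylakoid and quinone genes numbered 8, with log2 differences from 1.08 to 2.09. Genes were placed in it by family, and the location of each protein was not checked. NADP-dependent malate dehydrogenase (AT5G58330) turns oxaloacetate into malate with NADPH in the chloroplast, is switched on by thioredoxin in the light, and so passes reducing power out of the organelle as malate. Its intensity was 0.422 and 0.368 in water samples 1 and 2, and 1.06, 0.964, 1.26 and 1.23 in water samples 3 to 6. Paraquat samples lay between 2.42 and 2.88, above every water sample. The means differed by 1.60 on the log2 scale (3.04-fold), and by 1.72 after position centring. Water samples 1 and 2 were low for this gene, and without the samples of those numbers in both groups it was 1.16.

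ABC1-type kinases are plastid and mitochondrial proteins linked to quinone metabolism, and 2 were raised. ATATH8 (AT2G39190) had intensities of 0.200, 0.277 and 0.382 under water and of 0.826, 0.903 and 1.03 under paraquat. Its groups were apart, the log2 difference was 1.46, and position centring left it at 1.58. AT3G24190 had a log2 difference of 1.37, with paraquat sample 4 above the other paraquat samples, and its groups overlapped after position centring (0.78).

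Cyclophilins help proteins fold by turning peptide bonds next to proline. AT5G35100 went from 0.496, 0.554 and 0.638 under water to 1.44, 1.66 and 1.89 under paraquat, a log2 difference of 1.33 with a gap of 0.95 between the groups. The other cyclophilin, AT1G74070, differed by 1.29. AT4G24930, a protein of the thylakoid lumen, differed by 1.08, with paraquat sample 5 nearest to the water range. After position centring these 3 genes were at 0.74, 0.57 and 0.61, and the groups remained apart for AT5G35100 of the 3.

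AT1G32220, a Rossmann-fold protein, was at 0.336, 0.198, 0.167, 0.127, 0.103 and 0.0738 in water samples 1 to 6 and between 0.601 and 0.768 in the paraquat samples. The paraquat samples were tightly grouped, and 3 of the water samples were under the 5th percentile of their arrays. The log2 difference was 2.09 (4.26-fold), and after position centring 1.38 with overlapping groups. AT5G63290, of the radical SAM enzymes, was at 0.129 and 0.210 in water samples 1 and 2 against 0.599 to 0.683 in water samples 3 to 6. In the paraquat samples the same numbers were low, at 1.03 and 0.898 against 1.70 to 1.81. Its log2 difference was 1.60 over all samples, with a gap of 0.05 between the groups, and 1.28 without those numbers. After position centring it was 1.33 with overlapping groups.

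Detoxification and amine oxidation gave 2 genes. AT5G44000 belongs to the glutathione transferases, which couple glutathione to foreign or oxidised compounds. Its intensity was 0.0765, 0.127 and 0.292 under water and 0.347, 0.632 and 0.725 under paraquat, as lowest, median and highest. The groups were barely apart, by 0.01 on the log2 scale, at a log2 difference of 2.0. Water sample 1 was the highest of its group and paraquat sample 6 the lowest, and 3 water samples were under the 5th percentile. Position centring gave 1.53 with overlapping groups. AT2G42490, of the copper amine oxidases, which release hydrogen peroxide as they oxidise amines, had the smallest difference of the 61 at 1.01, from 0.132, 0.141 and 0.165 under water to 0.254, 0.290 and 0.370 under paraquat.

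Among 8 regulators, log2 differences ran from 1.06 to 2.06. AT1G01250, a transcription factor of the AP2/ERF family, had intensities of 0.106, 0.183 and 0.335 under water and of 0.770, 0.911 and 1.13 under paraquat. The groups were apart and the log2 difference was 2.06 (4.16-fold; 1.47 position centred), with 1 water sample under the 5th percentile. AT1G19490, a bZIP transcription factor, went from 0.166, 0.234 and 0.283 to 0.888, 0.995 and 1.16, a log2 difference of 1.89 with a gap of 1.26 (1.18 position centred). A C2H2 zinc finger gene, AT5G61470, differed by 1.24, and its groups overlapped after position centring (0.71).

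The F-box gene AT2G23160 encodes a protein of a family that picks targets for ubiquitin ligases. Its intensity was 0.186, 0.314 and 0.801 under water and 0.947, 1.17 and 1.27 under paraquat, with water sample 4 the highest of its group. The log2 difference was 1.53 and the gap between the groups 0.03. Another F-box gene, AT1G51550, differed by 1.35, and AT1G49850, of the RING-type proteins that also serve ubiquitin ligases, by 1.09. AT3G04210, of the TIR-NBS family of disease resistance proteins, differed by 1.30 (1.09 position centred).

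The protein kinase gene AT5G40030 depended most on the samples numbered 1 and 2. Water samples 1 and 2 were at 0.22 and 0.25, and water samples 3 to 6 between 0.763 and 0.946. Paraquat samples lay between 1.14 and 1.58. The log2 difference of 1.06 became 0.37 without those numbers and 0.70 after position centring.

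Enzymes of sugar transfer and lipids, and proteins of membranes and transport, made up 7 genes. AT4G19900, of a glycosyltransferase family, had intensities of 1.45, 1.66 and 2.80 under water and of 5.60, 6.67 and 9.50 under paraquat. Samples 1 and 2 were the highest in both groups, and the groups did not overlap. The log2 difference was 2.07 (4.21-fold), and 2.53 after position centring. AT1G35510, of the O-fucosyltransferases, went from 1.16, 2.01 and 2.39 to 3.63, 4.29 and 5.62, a log2 difference of 1.32.

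AT4G14330, of the kinesins, which move along microtubules, went from 0.168, 0.237 and 0.336 under water to 0.797, 0.941 and 1.04 under paraquat, a log2 difference of 1.74 with groups apart (1.22 position centred). AT5G11650, of the alpha/beta hydrolases, differed by 1.54. Its water sample 2 was at 0.0989, the other water samples between 0.348 and 0.416, and the paraquat samples between 0.699 and 1.44. PRA1.B6, a prenylated RAB acceptor of the secretory pathway, differed by 1.33, and AT3G29410, of the terpene synthases, by 1.30. MAMI, a membrane-associated and mannitol-induced protein by its name, differed by 1.16. For these last 4 genes the groups overlapped after position centring, at 1.17, 0.62, 0.77 and 0.86.

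No role is given for 25 genes. Beside AT4G35660 and AT3G25680, these are AT5G65490, AT2G32470, AT1G63610, AT1G51080, AT2G22050, AT5G41960, AT3G06870, AT3G20490, AT1G32520, AT1G50750, AT1G72020, AT5G13260, AT3G01060, AT5G46560, AT3G61870, AT3G17550, AT5G65250, AT3G50130, AT1G35210, AT5G53920, AT1G32160, AT2G31920 and AT5G42680. The 23 listed here had log2 differences from 1.90 for AT5G65490 down to 1.02 for AT2G31920 and AT5G42680. AT5G65490 was at 0.10, 0.134 and 0.283 under water and at 0.386, 0.643 and 0.855 under paraquat, a gap of 0.16, and 3 of its water samples were under the 5th percentile. AT2G32470 went from 0.216, 0.286 and 0.421 to 0.880, 1.24 and 1.54, a log2 difference of 1.86 with groups apart (1.49 position centred).

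At the edge of the rule, AT2G42490 (1.01), AT5G42680 (1.02) and AT2G31920 (1.02) were just inside the limit on the difference. AT3G51510 and AT1G27610 (0.99 each) and AT5G33390 (0.98) were just outside it with groups apart. The narrowest gaps among the 61 belonged to AT5G44000, AT1G32160 and AT2G23160, at 0.014, 0.017 and 0.027. Another 16 probes differed by 1 or more but overlapped, the closest being AT4G18180 and AT1G76050, with gaps of -0.016 and -0.022.

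Place in the probe numbering moved with the choice of these genes. The 12 steps whose median difference over all probes was above 0 (9 to 21 without 16) held 55 of the 61 genes (90.2%) and 346 of the 636 probes that could qualify (54.4%). The steps were sorted by the same differences that chose the genes, so a higher share there follows from the choice and is no result. Steps 0 to 4, 16 and 21 to 23 held none of the 61. The other 6 genes were AT1G49850, AT4G19900, AT4G31930, AT5G58330, ATATH8 and AT3G01060, in steps 5 to 8, where all probes had medians from -0.58 to -0.20. Those 6 genes were also the ones whose difference grew after position centring. That centring shifts all genes of a step alike, so the growth follows from the step and is no further result about the genes. The part of place in the differences was not tested.

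**Figure D3:**
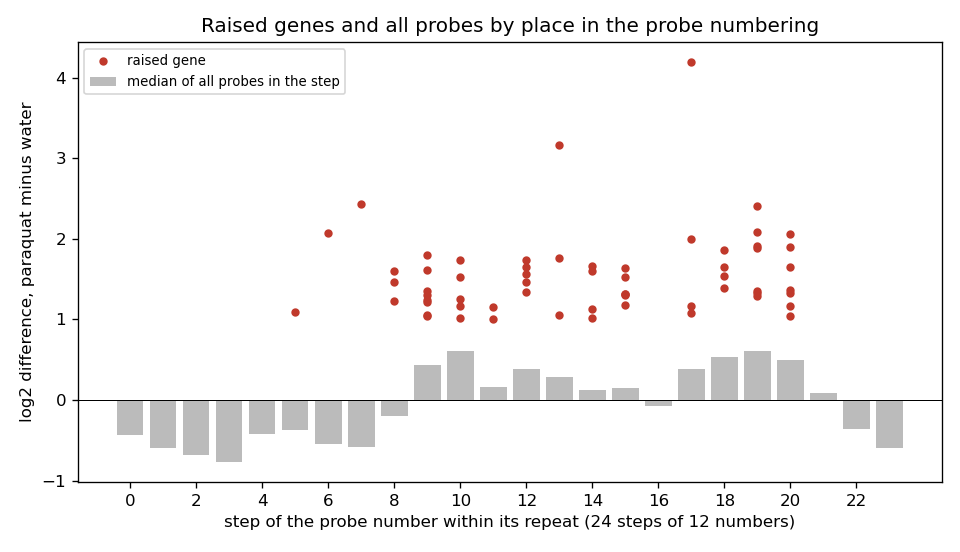
Log2 difference of the 61 genes (red points) and the median log2 difference of all probes (grey bars) against the step of the probe number within its repeat. Most points (55 of 61) lie over steps with a bar above 0, and no point lies over steps 0 to 4.

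After position centring the differences of the 61 genes ran from 0.35 to 3.72, with a median of 1.07, and the groups were apart for 31, while 13.7% of all 636 probes had paraquat samples above all water samples after that centring. The full rule was then met by 25 of the 61, against 8.33% of the probes that could qualify (53 of 636, genes left out by name included). Under the deposited scaling all 61 met it, under cyclic loess 60 and under median centring 48. The deposited paraquat columns were the brighter, and without normalization the median difference of the 61 was 1.64 in place of 1.39. In all, 101 genes met the rule as deposited, so that scaling was a weak check. Under all 5 scalings the rule was met by 23 genes, and the same 23 met it with any 1 sample left out and without numbers 1 and 2. Leaving samples out can change the difference, but apart from renormalization it cannot make separate groups overlap. Averaging neighbouring numbers changes no difference and cannot narrow a gap, so all 61 had to pass that setting.

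By function, these 23 held 6 of the 9 RNA and organelle expression genes (AT4G09040, AT2G28540, AT3G18870, AT5G02830, AT5G55580 and AT1G31790). They held 2 of 2 of the mitochondrial glycoprotein family and 2 of 8 of the plastid redox, thylakoid and quinone group (AT5G58330 and ATATH8). Also among them were 4 of 8 regulators (AT1G01250, AT1G19490, AT2G23160 and AT3G04210) and 2 of 7 of the sugar, lipid, membrane and transport group (AT4G19900 and AT4G14330). The remaining 7 were of the 25 without a role, AT4G35660 and AT3G25680 among them. Neither gene of the detoxification pair was in the set. These counts describe chosen genes and were not tested against each other.

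**Figure D4:**
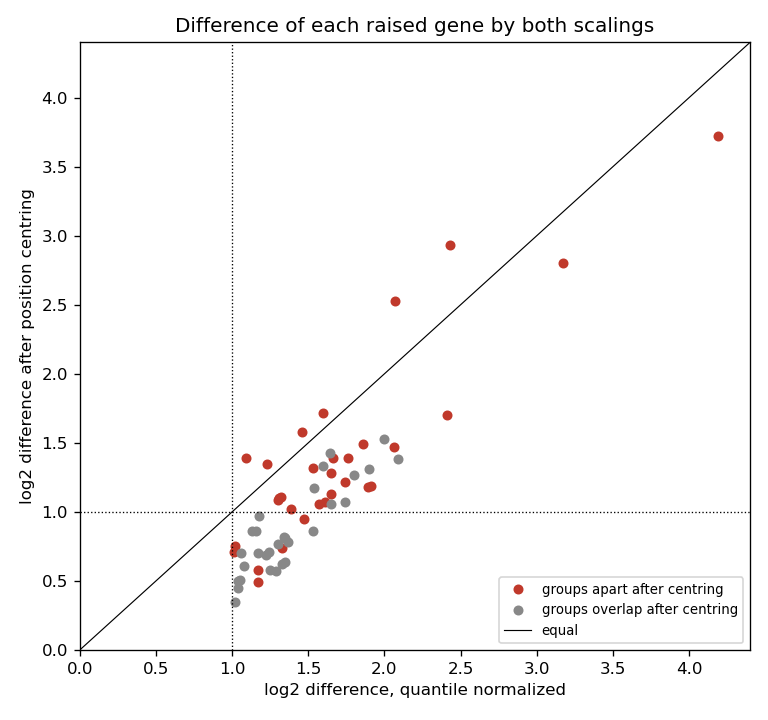
Log2 difference of each of the 61 genes after position centring (vertical axis) against that after quantile normalization alone (horizontal axis); dotted lines mark the limit of 1, and grey points have groups that overlap after centring. Most points lie below the line of equal values, 27 fall under 1, and 6 lie above the line.

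Samples numbered 1 and 2 stood away from numbers 3 to 6 for some genes. Under water, their mean was lower by over 1 log2 unit for 9 of the 61 and higher by over 1 for 4, namely AT1G32220, AT1G01250, AT5G44000 and AT5G65490, which were all at their highest in water sample 1 or 2. Under paraquat the counts were 1 and 0. Without those numbers in both groups 52 of the 61 still met the rule, and the 9 that did not had differences from 0.37 to 0.97. The highest water value of a gene was in water sample 1 or 2 for 28 genes and in sample 6 for 3.

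A second probe that lists several genes included 8 of the 61. Its signal may come from a relative, so it is no repeat measurement of the gene. The log2 difference on the second probe was 0.94 for AT3G50130, which limma called higher, against 25.9% of all probes with several genes. By contrast, it was -0.93 for AT5G55580 (mTERF9) and -1.54 for AT1G35510, both called lower, against 27.2% of such probes. For AT3G25680 it was 0.25, for AT1G63610 -0.14, for AT2G22050 0.69, for AT1G32160 0.68 and for AT5G42680 -0.07, and these 5 were not called.

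**Figure D5:**
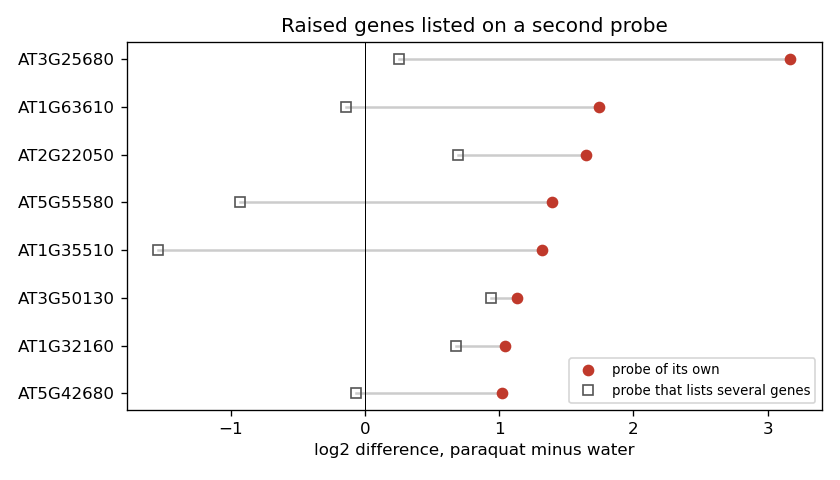
Log2 difference between paraquat and water for the 8 genes that are listed on a second probe, on the probe of their own (red points) and on the probe that lists several genes (open squares). All squares lie to the left of their points, and those of AT5G55580 and AT1G35510 are well below 0.

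By chromosome, as RefSeq assigns the genes, the 61 were 15 of 154 qualifying probes on chromosome 1, 8 of 119 on chromosome 2, 12 of 120 on chromosome 3, 6 of 115 on chromosome 4 and 20 of 126 on chromosome 5. These shares range from 5.22% to 15.9% and were not tested. The closest members were AT1G32160 and AT1G32220, with 5 protein-coding genes between them.

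Of 274 genes on lists for antioxidant enzymes, reactive oxygen responses, plastid chaperones and proteases, photosystem and antenna subunits, the chloroplast NDH complex, glutathione transferases, AP2/ERF factors, heat shock proteins and cell type markers, 12 had a probe of their own. Of the 12, 4 met the numeric limits of the rule (AT3G52960, Cpn60beta4, AT5G46390 and CRR41) and are not among the 61 because they were left out by name; the other 8 did not meet them. In all, limma called 6 of them higher and 3 lower, where 23.8% and 26.3% of all probes with 1 gene were called. The 6 were those 4, CRR21, also left out by name, and PSBW of photosystem II, which differed by 0.34. Those called lower were GLDH of ascorbate synthesis (-1.49), the antenna gene LHB1B2 (-0.66) and PSBY (-0.38). PSAN of photosystem I (-0.06), the plastid chaperonin subunit Cpn60beta3 (0.10) and the protease SPPA (-0.26) were not called. These calls were made without position centring. After it, PSBY was at 0.16, PSAN at 0.45 and Cpn60beta3 at -0.37, each with its sign turned. GLDH was then at -0.95, LHB1B2 at -0.20, SPPA at -0.21, PSBW at 0.80 and CRR21 at 0.33. The 4 genes that met the numeric limits lay between 1.58 and 2.2. AT5G44000 and AT1G01250 stand on neither family list, because the lists were built from RefSeq symbols and both genes carry a locus tag there. NdhS, named for the NDH complex, is not among the listed genes either. It met the numeric limits of the rule at 1.14 and was left out by name. No marker of leaf mesophyll, guard cells, phloem, root or seed had a probe of its own, so the tissue could not be checked, and a change in the share of cells and a change in RNA per cell cannot be told apart.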

How the data were processed

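Array intensities on a linear scale were deposited by the authors, 1 value per probe and sample; the scanner, background correction and scaling behind them are not stated in the labels. The 12 columns were grouped by the titles of the samples. Zeros (108 to 148 per column of 3439 probes) were set to the lowest positive value of their column, columns were quantile normalized and log2 was taken. Differences are paraquat minus water. limma 3.58.1 in R 4.3.3 (lmFit, eBayes, two-sided, Benjamini-Hochberg over 3439 probes, threshold 0.05) gave the background counts, and it was tested on simulated data. The simulated samples were independent and held no pattern by probe number. That test therefore cannot show how likeness of neighbouring numbers or place in the numbering affects the calls. Precision is limited by the number of arrays.

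Probes were named through the platform table and RefSeq (assembly TAIR10.1): 692 probes had 1 gene, 870 several and 1877 none listed, and 690 of the 692 were matched. No build of the array is named, so no coordinates are given. The members, the gene lists and the alternatives were chosen with earlier results of these data known. All 61 members are named, and values are given by group for the 10 largest and for up to 3 of each function group, with some others chosen after their values were seen. Equal numbers deviated together (correlations 0.505, 0.478, 0.469, 0.452, 0.379 and 0.337 for numbers 1 to 6 over 3186 probes). Unequal numbers were not correlated between the groups, so this check cannot tell pairing by number from likeness of neighbouring numbers. Promoter and protein sequences were not analysed here. Alternatives were 5 scalings in all, averaged neighbours, a replicate block, left-out samples, and other limits and filters.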

Additional observations from a re-analysis of the deposited data

Results flagged for a closer look

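Each gene gave 2 groups of 6 values, 122 in all, and 10 of them held a value set apart from the rest when its gap to the nearest value was divided by the range (95% level). For independent values in groups that were not chosen, chance would give about 6.1. Here the rule bars water values that reach the paraquat range and paraquat values that reach the water range. Neighbouring numbers may also be repeated readings, so the 10 cannot be weighed against that count. AT5G11650 in water sample 2 had the highest ratio, 0.821, at a normalized log2 level of -3.27 against -1.46 to -1.07 in the other water samples. AT5G41960 was low in the same sample (ratio 0.704), at -4.46 against -2.52 to -1.70, and AT1G19490 was low in water sample 4 (ratio 0.658). Paraquat sample 4 was low for AT4G31930 (ratio 0.674; -0.41 against 0.17 to 0.46), and high for AT5G02050 of the same family (ratio 0.680) and for AT3G24190 (ratio 0.670). AT3G50130 was low in paraquat sample 2 (ratio 0.711), AT1G72020 in paraquat sample 5 (ratio 0.710) and AT1G35210 in paraquat sample 3 (ratio 0.743). AT1G32520 was high in paraquat sample 3 (ratio 0.625).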

How the results depend on the processing

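The 61 genes that met the rule became 101 with the values as deposited, 28 with a limit of 1.5 on the difference and 93 with a limit of 0.5. Other settings gave 41 to 73 genes, the lowest after position centring (25 of them among the 61) and the highest when every numbered pair had to be higher in place of groups apart. The median difference of the 61 genes moved from 1.39 to 1.64 as deposited and to 1.07 after position centring. Leaving out 1 sample at a time gave 57 to 66 genes, a median difference of 1.35 to 1.53, 752 to 817 probes called higher and 929 to 996 called lower. Against 826 higher and 979 lower in all 12 samples, limma called 492 higher and 668 lower with neighbouring numbers averaged, and 418 higher and 508 lower when position centring, averaging and the pair as a replicate block were joined. Those 2 settings hold 3 values a group in place of 6. With the replicate number as a block 913 were higher and 1051 lower, so the block moved neither count by over 1.5 times. The split of calls depended on scaling, at 1111 higher and 738 lower as deposited and 716 and 1115 with median centring. Of 1098 differences of single genes under an alternative, 50 moved by more than 1 SD, 37 of them under position centring. None changed sign, which the choice of genes with groups apart all but fixes where samples are only dropped or averaged. The causes were not tested. Of the 61 genes, 12 had a water sample under the 5th percentile of its array.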
